A study of Mus musculus with 16 samples.

Results

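The IL-12 and IL-18 axis was followed through 10 genes, taken by symbol from the 32285 genes counted in each of 8 single-cell libraries. They were the cytokine genes Il12a, Il12b and Il18, the antagonist gene Il18bp, the receptor genes Il12rb1, Il12rb2, Il18r1 and Il18rap, and the transcription factor genes Stat4 and Tbx21, and every library held a row for all 10. The libraries came from subcutaneous tumours grown in C57BL/6J mice that had received 1000000 B16 melanoma cells of the kind named Bro4.1, either control cells or cells lacking B2m, the light chain of MHC class I. On days 6, 9 and 12 each mouse was injected into the peritoneum with agonist CD40 antibody, at 100 µg, or with rat IgG2a isotype antibody. Tumours were taken on day 14 and enriched for CD45+ leukocytes with magnetic beads. In the sample labels B2m loss is a genotype of the mice, but the series' design text assigns it to the implanted melanoma cells, which is the reading used here. Whether the B2m-null cells were 1 clone is not given in the sources used here.

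IL-12 is made by dendritic cells and macrophages as a dimer of the chains encoded by Il12a and Il12b, and the Il12b chain is shared with IL-23. It binds a receptor of the Il12rb1 and Il12rb2 chains on T and NK cells and acts through STAT4 and T-bet (Tbx21) to drive interferon gamma production. IL-18 is stored as an inactive precursor that caspase-1 cleaves, binds Il18r1 with the accessory chain Il18rap, and is neutralised by the secreted protein of Il18bp, a gene induced by interferon gamma. CD40 on dendritic cells and macrophages is a classical trigger of IL-12.

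The replicate was the mouse, identified by the hashtag antibody on its cells. There were 5 mice with control tumours given isotype, 2 with control tumours given anti-CD40, 5 with B2m-null tumours given isotype and 4 with B2m-null tumours given anti-CD40, 16 in all. The 2 control anti-CD40 mice were in 1 pool that was run on 2 lanes, labelled as technical replicates, so their lanes were summed by mouse. No alternative leaves that pool out, so pool and antibody cannot be told apart in the control anti-CD40 arm. With the lane as unit, an alternative named below where it ends a call, this arm is 1 lane, and cells assigned to no mouse are included. There, and where a left-out lane or mouse leaves 1 mouse in an arm, the other groups give the spread and the lone sample is assumed to vary like them. The other groups came as 2 pools each, called replicate 1 and replicate 2. The 8 lanes held 116552 barcodes, and each lane held 45985739 to 99264875 UMIs (unique molecular identifiers, each counting 1 captured RNA molecule), and 91710 cells passed the filters. Of these, 74222 were assigned to 1 mouse and 72638 of the assigned cells were haematopoietic, 288 to 16702 per mouse, with the fewest in B2m-null isotype mice 2 and 3 (857 and 288). Between 30.1% of the barcodes (B2m-null isotype replicate 1) and 90.7% were assigned. Among melanoma-like cells, B2m stood at 1086 to 2128 CPM (UMIs of the gene per 1000000 UMIs of those cells) in the 4 control lanes and at 193 to 491 CPM in the 4 B2m-null lanes, so it was lower but not 0 in every lane labelled as lacking it. Any 2 lanes shared 41 to 92 barcode sequences, 0.31 to 0.62% of their barcodes.

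Cells were grouped into 30 clusters made without the 10 genes, and 25 clusters were called by their marker genes: monocyte-like or macrophage-like, mature dendritic cell-like (Ccr7, Fscn1, Ccl22), cDC1-like, cDC2-like, plasmacytoid dendritic cell-like, neutrophil-like, CD8 T-like, CD4 T-like, regulatory T-like, NK-like and a few others. They are named without "-like" from here on. An unnamed cluster of 4798 barcodes carried T cell and myeloid genes together and entered no class, but it was counted in the sums over all haematopoietic cells. The same held for a cluster of 1131 barcodes led by Cd209a and Tnfrsf4, with Xcr1 and Ikzf2, genes of dendritic and of regulatory T cells. Levels are CPM of the class in 1 mouse, for mice with 20 or more cells of that class. Changes are log2 fold changes with their standard error (SE) from edgeR's quasi-likelihood test on counts summed by mouse, with p-values adjusted by Benjamini-Hochberg over all genes of that class and comparison, and a gene was called at an adjusted p under 0.05.

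The 10 genes divided by cell type (the bars of where each gene's UMIs lay). Mature dendritic cells held 88.35% of all Il12b UMIs, from 2206 of the 91710 cells, and monocytes and macrophages held 4.37%. Monocytes and macrophages held 79.3% of the Il18 and 81.13% of the Il18bp UMIs. Il12a was scarce, with 302 UMIs in all, of which 47.02% were in monocytes and macrophages, 21.19% in plasmacytoid dendritic cells and 9.6% in an unnamed cluster led by immunoglobulin genes.

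CD8 T cells were the largest source of Il18r1 (47.28%), Il18rap (39.78%), Tbx21 (45.77%), Stat4 (31.25%) and Il12rb2 (25.68%). Stat4 was also plentiful in mature dendritic cells, which held 22.59% of its UMIs, and Il12rb2 UMIs lay there to 10.33%. Il12rb1 differed from the other receptor genes in that monocytes and macrophages held 40.91% of its UMIs and CD8 T cells 21.79%. Those shares depend on how many cells of each class were captured. Monocytes and macrophages were on average 43.9% (control anti-CD40) to 66.2% (B2m-null isotype) of a mouse's haematopoietic cells. Their shares of Il12a and Il12rb1 UMIs therefore show no concentration in that class.

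**Figure D1:**
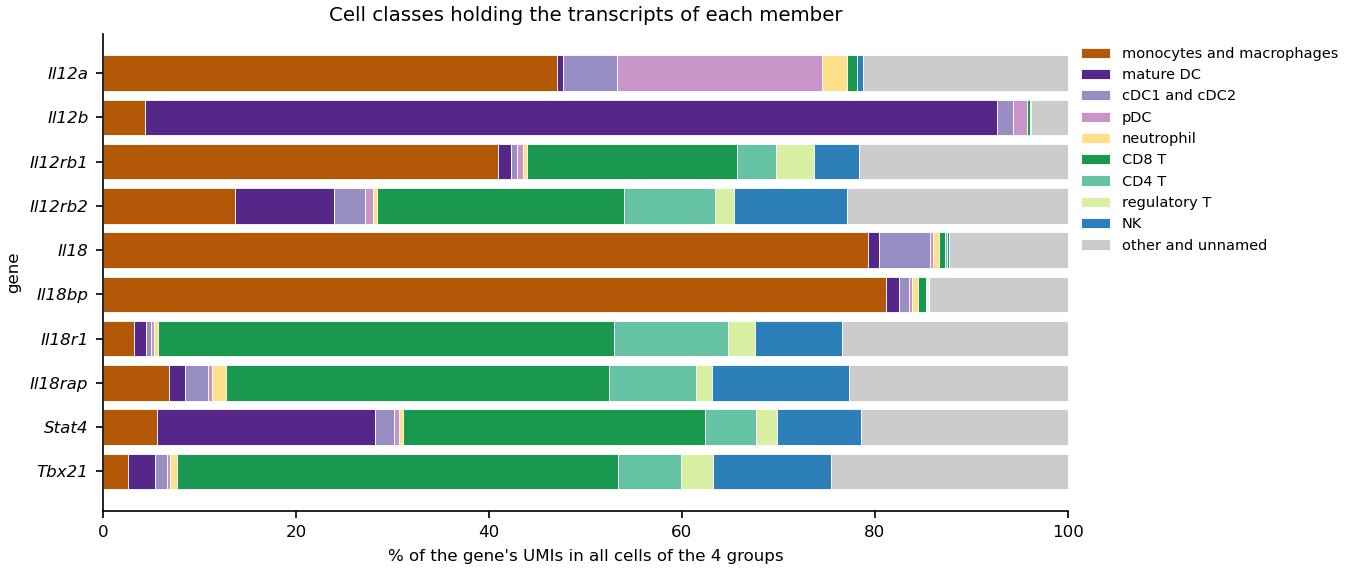
Stacked bars give the percent of each gene's UMIs that lay in each cell class (colours), over all 91710 cells of the 4 groups, with 1 bar per gene. Il12b sits almost wholly in mature dendritic cells (88.35%), Il18 and Il18bp in monocytes and macrophages (79.3% and 81.13%), and Il18r1, Il18rap and Tbx21 mainly in T and NK cells. Stat4 and Il12rb2 are spread over T, NK, dendritic and other cells, with 22.59% of Stat4 in mature dendritic cells. Il12rb1 is split between macrophages and T cells.

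After anti-CD40 in control tumours, Il18r1 was higher in CD8 T, CD4 T and regulatory T cells, Il18rap in CD4 T and regulatory T cells, Il12rb1 in CD8 T and NK cells and Il18bp in macrophages. Il12b and Il18 were lower over all haematopoietic cells, Il18 also in macrophages, and Stat4 was lower in NK cells. Of 49 tests of a member in a cell set, 19 were called, 15 higher and 4 lower, and 25 had an unadjusted p under 0.05. The calls numbered 6 of 10 members in the sums over all haematopoietic cells, where 25.8% of all genes tested were called. In single cell sets they numbered 3 of 10 in monocytes and macrophages (20.6% of all genes), 0 of 8 in conventional dendritic cells, a set of cDC1, cDC2 and mature dendritic cells together (1.77%), 3 of 7 in CD8 T cells (42.5%), 2 of 3 in CD4 T cells (6.65%), 3 of 5 in regulatory T cells (17.4%) and 2 of 6 in NK cells (6.63%). The shares in CD8 T cells and macrophages were near the background. Members missing from a set had too few counts to be tested.

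In B2m-null tumours Il18r1, Il18rap, Il12rb1 and Il18bp were higher under anti-CD40 in 1 or more cell sets, and Il12a was higher in macrophages. There 23 of 58 tests were called, 20 higher and 3 lower, and 33 had an unadjusted p under 0.05. The calls were 8 of 10 in all haematopoietic cells (34.8% of all genes) and 5 of 10 in monocytes and macrophages (34.4%). They were 2 of 8 in conventional dendritic cells (8.36%), 1 of 9 in mature dendritic cells (1.09%), 1 of 7 in CD8 T cells (8.8%), 1 of 3 in CD4 T cells (12.1%), 3 of 5 in regulatory T cells (11.2%) and 2 of 6 in NK cells (8.49%). Over all haematopoietic cells, the median log2 fold change of the 10 members was 0.57 in control and 1.46 in B2m-null tumours. Over all genes it was 0.01 and -0.01. Such sums also follow the mix of cell types, whose part was not tested. Medians of the members tested within 1 class, control tumours first, were 0.17 and -0.01 for NK cells. Conventional dendritic cells gave 0.08 and -0.03, and B2m-null mature dendritic cells -0.02. Monocytes and macrophages gave 0.32 and 1.18. T cell classes gave 0.56 and 0.68 (CD8), 0.86 and 0.63 (CD4), and 0.74 and 0.97 (regulatory).

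**Figure D2:**
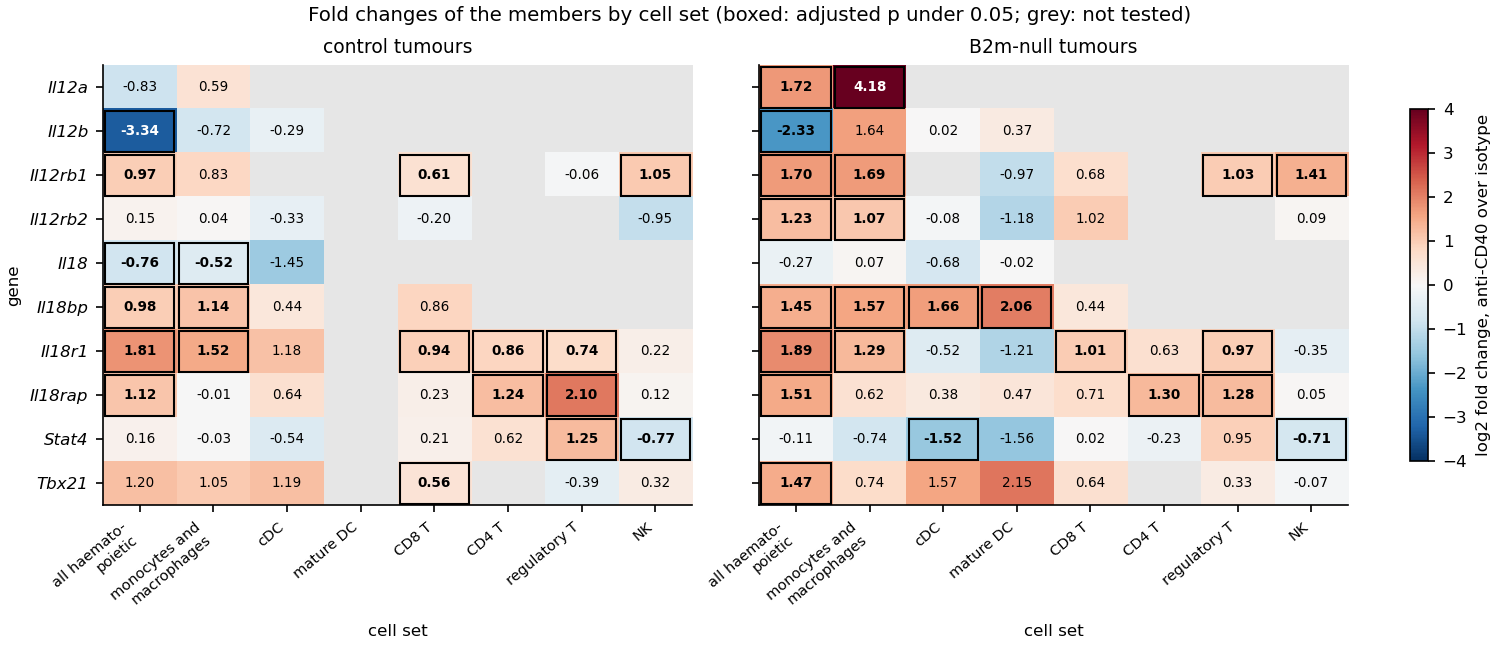
Heat map of the log2 fold change (anti-CD40 over isotype) of the 10 genes by cell set, in control tumours and in B2m-null tumours, with a box and bold number where adjusted p was under 0.05 in edgeR's quasi-likelihood test and grey where no test was made. Il18bp, Il12rb1, Il18r1 and Il18rap are mostly above 0 in both tumours, Il12b is below 0 over all haematopoietic cells, and Stat4 is below 0 in NK cells and in conventional dendritic cells.

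Il12b lies on chromosome 11 (GRCm38, 44400063 to 44414033, plus strand). Over all haematopoietic cells its level was 20.1, 27.8, 14.6, 4.27 and 26.6 CPM in the 5 control isotype mice and 0.59 and 2.40 CPM in the 2 control anti-CD40 mice. It was 14.3, 46.5, 0, 9.94 and 4.14 CPM in the 5 B2m-null isotype mice and 7.67, 2.78, 0.34 and 1.11 CPM in the 4 B2m-null anti-CD40 mice. The control groups did not overlap, while in B2m-null tumours 1 isotype mouse was at 0 and the highest anti-CD40 mouse lay above the lowest isotype mice. Il12b was 3.34 ± 1.09 (SE) log2 units lower under anti-CD40 in control tumours (log2 fold change -3.34, adjusted p = 0.035) and changed by -2.33 ± 0.87 in B2m-null tumours (adjusted p = 0.049). The control call ended without control isotype replicate 1, control anti-CD40 replicate 2 or either control anti-CD40 mouse (-3.08, -2.71, -2.81 and -4.91), and also with the lane as unit (-3.04) or the highest Scrublet scores removed (-3.16), and it was kept at -4.93 without control anti-CD40 replicate 1, with adjusted p between 0.0097 and 0.23 over the alternatives. The B2m-null call ended under 12 of 22 alternatives, among them the loss of control isotype replicate 1 (-2.32) or 2 (-2.32), control anti-CD40 replicate 2 (-2.33), B2m-null isotype replicate 1 (-1.37), B2m-null anti-CD40 replicate 2 (-1.33) or either control anti-CD40 mouse (-2.32 and -2.32). The other 5 were the lane as unit (-2.21), DESeq2 (-2.19), a stricter cell filter (-2.24), the highest Scrublet scores removed (-2.25) and cells thinned to 2000 UMIs. The fall was larger without B2m-null isotype replicate 2 (-2.98) and without B2m-null anti-CD40 replicate 1 (-4.11), with adjusted p between 0.016 and 0.35.

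Within mature dendritic cells, where the gene was concentrated, no change was detected. Their Il12b level was 341, 328, 292, 91.4 and 413 CPM in the control isotype mice and 419 CPM in the 1 control anti-CD40 mouse with 20 or more such cells. It was 282, 413, 167 and 163 CPM in 4 B2m-null isotype mice and 396 and 241 CPM in 2 B2m-null anti-CD40 mice with 33 and 27 such cells, both of replicate 1. The 1 control anti-CD40 mouse lay just above the highest control isotype mouse, the B2m-null groups overlapped, and the log2 fold change in B2m-null tumours was 0.37 ± 0.48 (adjusted p = 0.83). In control tumours the anti-CD40 arm kept 1 mouse with 20 or more such cells, and a comparison was made only with 2 or more mice in each arm, so none was run. The SE is wide, so a moderate difference in either direction could have gone unseen.

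The share of these cells was much lower under anti-CD40. Of haematopoietic cells, 4.41 ± 1.10% (SD, n = 5) were mature dendritic cells in control isotype mice and 0.193 ± 0.048% (n = 2) in control anti-CD40 mice, and 5.28 ± 3.67% (n = 5) and 0.656 ± 0.510% (n = 4) in the B2m-null groups. The lowest isotype mouse, at 2.08%, was above the highest anti-CD40 mouse, at 1.37%. In sums over all cells, fewer cells of a type and less RNA per cell cannot be told apart. Shares of cells with a UMI, and levels and shares by cluster, include cells assigned to no mouse. After each cell was thinned to 1000 UMIs, 13.9% (95% exact interval 11.8 to 16.4%) of control isotype mature dendritic cells had an Il12b UMI, against 14.6% (6.07 to 27.8%) under anti-CD40, 12.6% (10.5 to 14.8%) in B2m-null isotype and 12.0% (6.70 to 19.3%) in B2m-null anti-CD40 tumours. Unthinned, the shares were 24.8, 24.5, 21.5 and 23.8% at median depths of 4165, 3207, 3164 and 3549 UMIs. Thinning left out 47, 1, 103 and 9 shallower cells. Intervals and floors here cover counting error only. In monocytes and macrophages the thinned share was 0.041 to 0.067%, given for comparison. The Il12b log2 fold change under anti-CD40 in that class was -0.72 ± 0.85 in control tumours (adjusted p = 0.59). It was 1.64 ± 0.80 in B2m-null tumours (adjusted p = 0.12), and neither was called.

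**Figure D3:**
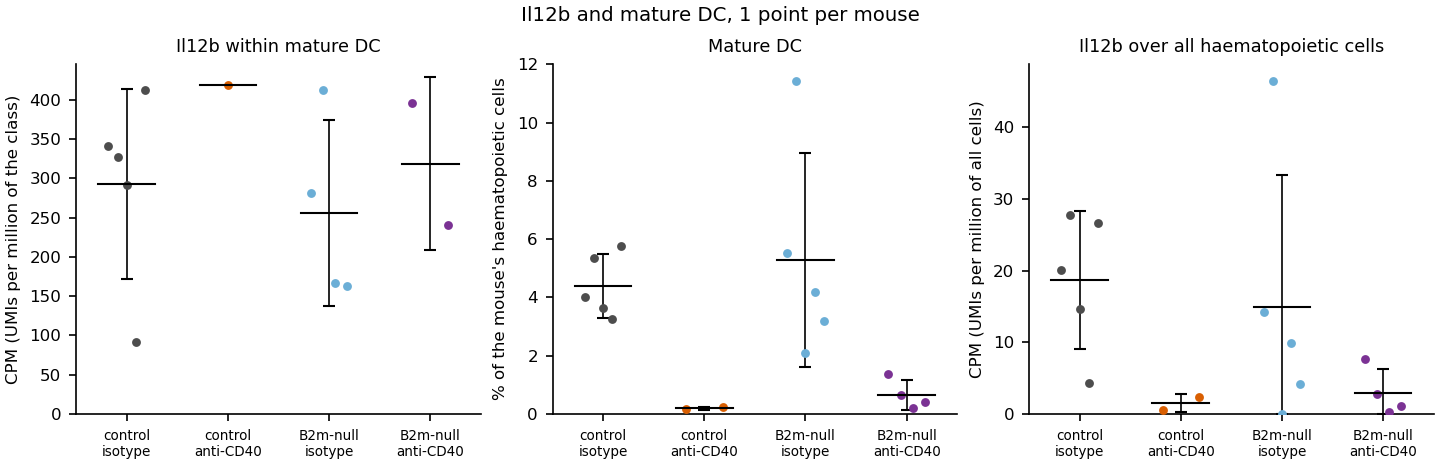
Points are single mice, by group, with lines at the mean and whiskers of 1 SD whose lower end stops at 0: Il12b CPM within mature dendritic cells (left), the percent of haematopoietic cells that were mature dendritic cells (middle), and Il12b CPM over all haematopoietic cells (right). The middle and right panels are lower under anti-CD40, while the level inside mature dendritic cells spans 91.4 to 419 CPM.

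Il12a, on chromosome 3 (68690644 to 68698547, plus strand), encodes the chain that limits IL-12 assembly in many cells. In monocytes and macrophages it was nearly absent in 3 groups: 0, 0.25, 0.065, 0.17 and 0.32 CPM in control isotype mice, 0 and 0.31 CPM in control anti-CD40 mice, and 0, 0, 0, 0.18 and 0.063 CPM in B2m-null isotype mice. The 4 B2m-null anti-CD40 mice had 1.61, 3.28, 0.70 and 0.71 CPM, from 10, 40, 14 and 11 UMIs. All 4 lay above every mouse of the other groups. The log2 fold change under anti-CD40 was 4.18 ± 0.76 in B2m-null tumours (adjusted p = 0.00064), a fitted value against a group with 5 UMIs in all, and it was called under all 19 alternatives that gave a value (3.35 with marker gates, 4.92 without B2m-null anti-CD40 replicate 2, and 7.22 without B2m-null isotype replicate 2). No value came from the stricter cell filter, from cells thinned to 2000 UMIs or without B2m-null anti-CD40 replicate 1, where Il12a fell under the filter on low counts. Mice 1 and 2, with 10 and 40 of the UMIs, are that replicate, so the call was not tested without it. Il12a thus entered the macrophage tests only through the group where it was high. Its call under the other alternatives is no independent support. In control tumours the log2 fold change of Il12a was 0.59 ± 0.95 (adjusted p = 0.71), and the difference of those effects, 3.59 ± 1.32, was not called (adjusted p = 0.072).

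Under anti-CD40, Il12a in macrophages was higher in B2m-null than in control tumours (log2 fold change 2.67 ± 0.75, adjusted p = 0.034). That call ended without control isotype replicate 1 (2.70), without control anti-CD40 replicate 2 (2.26) and without either control anti-CD40 mouse (2.22 and 7.32), and the value was 3.41 without B2m-null anti-CD40 replicate 2. The same 3 settings gave no value here. It also ended with the lane as unit (2.73) or marker gates (2.83), DESeq2 gave no adjusted p, and adjusted p ran from 0.012 to 0.19. Over all haematopoietic cells Il12a was also called in B2m-null tumours (1.72 ± 0.55, adjusted p = 0.023) and between tumours under anti-CD40 (2.53 ± 0.69, adjusted p = 0.028). Leaving out B2m-null isotype replicate 1 (1.55), B2m-null isotype replicate 2 (2.34) or B2m-null anti-CD40 replicate 1 (0.68) ended the first of these, which was 2.46 without B2m-null anti-CD40 replicate 2, and so did the lane as unit (1.37) and thinning cells to 2000 UMIs, which cut the value to 0.51, with adjusted p from 0.0047 to 0.58. The second ended without control anti-CD40 replicate 1 (2.34), B2m-null anti-CD40 replicate 1 (1.5) or either control anti-CD40 mouse (2.21 and 3.56), and with the lane as unit (2.52) or thinned cells (2.17), and was 3.28 without B2m-null anti-CD40 replicate 2, with adjusted p from 0.0068 to 0.2.

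The Il12a UMIs of macrophages were uneven over clusters. Within B2m-null anti-CD40 tumours, cluster 11, led by Ly6i, had 5.95 CPM, from 77 UMIs, against 0 to 0.99 CPM in the other 8 clusters of the class, where cells assigned to no mouse are counted too. Its level was 2.16, 1.46 and 0 CPM, from 1, 2 and 0 UMIs, in the control isotype, control anti-CD40 and B2m-null isotype groups. The cluster made up 22.48% of the B2m-null anti-CD40 monocytes and macrophages but 1.12, 3.59 and 0.29% of those cells in the other groups, in the same order. So different clusters held this class in the groups compared. In cells thinned to 1000 UMIs, 0.183% (0.110 to 0.285%) of B2m-null anti-CD40 monocytes and macrophages had an Il12a UMI, against 0.0165 to 0.0342% in the other groups. The unthinned shares were 0.685% against 0.0588 to 0.0968%, at median depths of 4534 UMIs against 2606 to 3647, and CD8 T cells gave 0 to 0.0197% after thinning. Over all clusters, and counted in the same way, that group had 107 Il12a UMIs in 11093 monocytes and macrophages, of which 76 had Il12a, 29 had Il12b and 1 had both, and in mature dendritic cells no cell had both.

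Il18, on chromosome 9 (50554827 to 50581840, plus strand), was broadly present in monocytes and macrophages. Their level was 47.5, 61.7, 46.6, 44.4 and 53.1 CPM in control isotype mice and 25.3 and 37.8 CPM in control anti-CD40 mice. B2m-null isotype mice had 46.6, 45.1, 43.6, 41.1 and 53.0 CPM and B2m-null anti-CD40 mice 43.2, 47.4, 39.2 and 39.3 CPM. Both control anti-CD40 mice lay below all 14 others, and the B2m-null groups overlapped. Il18 fell by 0.52 ± 0.16 on the log2 scale in control tumours (adjusted p = 0.028) and its log2 fold change was 0.07 ± 0.13 in B2m-null tumours (adjusted p = 0.71), while the difference of those effects, 0.59 ± 0.20, was not called (adjusted p = 0.057). Significance in control tumours ended without control isotype replicate 1 (-0.46) or control anti-CD40 mouse 1 (-0.23), and with the lane as unit (-0.36), thinned cells (-0.45), clustering at resolution 2 (-0.39) or marker gates (-0.51). Without control anti-CD40 mouse 2 the value was -0.92, so the size of the fall depended on which mouse was kept. Where each arm kept 2 or more mice, adjusted p ran from 0.019 to 0.12.

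Over all haematopoietic cells Il18 fell by 0.76 ± 0.22 on the log2 scale in control tumours (adjusted p = 0.017). That call ended without control isotype replicate 1 (-0.78) or control anti-CD40 mouse 1 (-0.44), and the value was -1.21 without control anti-CD40 mouse 2. Where each arm kept 2 or more mice, adjusted p ran from 0.0042 to 0.053. By class the highest level was in cDC1 cells, at 76.7 ± 29.3 CPM (SD, n = 4) in B2m-null isotype and 53.8 ± 22.2 CPM (n = 5) in control isotype mice, whose spreads reach the macrophage levels. Thinned to 1000 UMIs, 5.13% (4.75 to 5.53%) of control isotype, 3.21% (2.85 to 3.60%) of control anti-CD40, 4.48% of B2m-null isotype and 4.36% of B2m-null anti-CD40 monocytes and macrophages had an Il18 UMI. The unthinned shares were 18.3, 11.2, 18.04 and 18.6%, thinning left out 1082, 1698, 1472 and 705 shallower cells, and CD8 T cells gave 0.158 to 0.387% after thinning.

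Il18bp, on chromosome 7 (102014885 to 102018690, minus strand), encodes the secreted protein that captures IL-18, and its macrophage level was higher under anti-CD40 in both tumours and lower in B2m-null than in control tumours under isotype. In monocytes and macrophages it stood at 164, 74.3, 73.1, 85.3 and 80.9 CPM in control isotype mice and at 168 and 212 CPM in control anti-CD40 mice. It was 42.7, 45.9, 48.8, 49.1 and 28.2 CPM in B2m-null isotype mice and 104, 115, 111 and 93.4 CPM in B2m-null anti-CD40 mice. Anti-CD40 groups lay above their isotype groups without overlap, although control isotype mouse 1 came close to the lower control anti-CD40 mouse. All B2m-null isotype mice lay below all control isotype mice. Il18bp rose by 1.14 ± 0.25 log2 units in control tumours (adjusted p = 0.0048) and by 1.57 ± 0.23 in B2m-null tumours (adjusted p = 0.00013), and the difference of those effects was 0.43 ± 0.35 (adjusted p = 0.43). In control tumours the call ended without control anti-CD40 mouse 2 (0.90, adjusted p = 0.11, with a lowest value of 0.00075 over the alternatives), and the B2m-null call was kept under all 22 alternatives (1.4 to 1.72).

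**Figure D4:**
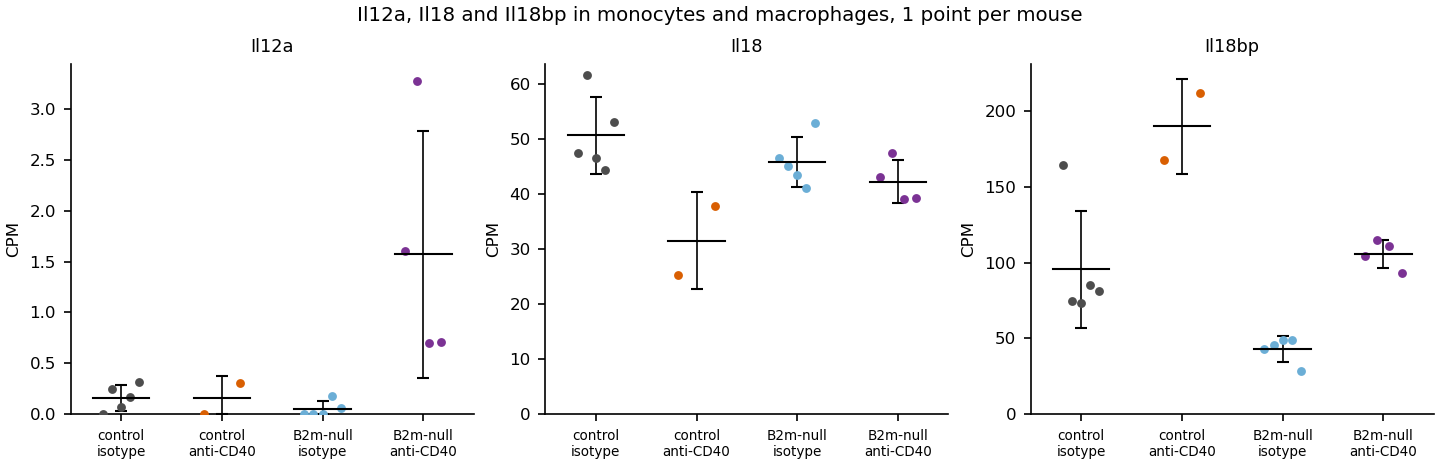
Points are single mice, by group, with lines at the mean and whiskers of 1 SD whose lower end stops at 0, for the CPM of Il12a, Il18 and Il18bp in monocytes and macrophages. Il18bp is higher under anti-CD40 in both tumours with no overlap, Il12a is 0.70 to 3.28 CPM in the 4 B2m-null anti-CD40 mice and at most 0.32 CPM in the others, and Il18 is lowest in the 2 control anti-CD40 mice.

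Il18bp also rose in B2m-null dendritic cells under anti-CD40. In mature dendritic cells it was 31.5, 44.1, 20.7 and 27.0 CPM in 4 B2m-null isotype mice and 95.4 and 153 CPM in 2 B2m-null anti-CD40 mice, without overlap (log2 fold change 2.06 ± 0.34, adjusted p = 0.0029), a call kept under the 18 alternatives that gave a value. Both of these anti-CD40 mice were in replicate 1, so the arm is 1 pool and the call was not tested without it, nor did 50 cells per mouse, the stricter cell filter or thinned cells give a value. With 10 or more cells per mouse, the 2 mice of replicate 2 entered at 64.6 and 31.0 CPM, the groups overlapped and the value was 1.67 (adjusted p = 0.014). Over conventional dendritic cells together the log2 fold change was 1.66 ± 0.39 (adjusted p = 0.014), and this call ended without B2m-null isotype replicate 1 (1.68), B2m-null isotype replicate 2 (1.53) or B2m-null anti-CD40 replicate 1 (0.48), and with 50 or more cells per mouse (1.12) or thinned cells (1.19), while it was 2.59 without B2m-null anti-CD40 replicate 2, with adjusted p from 6.7e-05 to 0.49. In control conventional dendritic cells Il18bp was not called (0.44 ± 0.45, adjusted p = 0.76). Control isotype mature dendritic cells ranged from 34.1 to 41.1 CPM, and the 1 control anti-CD40 mouse with enough of them had 70.6 CPM. Macrophage marker genes in conventional dendritic cells summed to 557 to 3024 CPM in B2m-null isotype and 287 to 1141 CPM in B2m-null anti-CD40 mice. These sums cover cDC1, cDC2 and mature dendritic cells together. The part of macrophage RNA in the rise of Il18bp was not tested.

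Within macrophages, Il18bp was highest in cluster 5, led by H2-M2, Nos2 and Il18bp itself although the gene took no part in the clustering. That cluster made up 45.19% of control anti-CD40 monocytes and macrophages, against 3.28% under isotype, 1.09% in B2m-null isotype and 9.75% in B2m-null anti-CD40 tumours. Its level was 296, 301, 128 and 199 CPM in control isotype, control anti-CD40, B2m-null isotype and B2m-null anti-CD40 tumours. In cluster 0, led by Vcam1 and Stab1, the levels were 69.1, 104, 32.1 and 60.8 CPM. In cluster 2, led by Mmp12, they were 83.6, 132, 36.8 and 89.6 CPM. In these 3 clusters the B2m-null isotype level was the lowest of the 4, whereas in cluster 1, led by Chil3, the control anti-CD40 level (31.9 CPM) was below the control isotype level (52.3 CPM). The cluster levels are sums over a group, and no test was run on them.

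By cells, 8.16% (7.68 to 8.65%) of control isotype and 15.7% (15 to 16.5%) of control anti-CD40 monocytes and macrophages had an Il18bp UMI after thinning to 1000 UMIs. In B2m-null tumours the shares were 3.47% (3.15 to 3.81%) and 10.2% (9.57 to 10.7%). Unthinned shares were 24.5, 34.9, 13.6 and 32.9% at median depths of 3285, 2606, 3647 and 4534 UMIs, and CD8 T cells gave 0.473 to 0.728% after thinning. The promoter of Il18bp is printed because the gene rose under anti-CD40 in macrophages of both tumours. It is the 250 bases before the start listed by RefSeq (GRCm38.p6, chr7:102018233-102018482, minus strand), in lower case because no motif searched was found in it. This window lies inside the gene as GENCODE places it (102014885 to 102018690). The bases before the GENCODE start, at 102018690, were not searched.
Il18bp: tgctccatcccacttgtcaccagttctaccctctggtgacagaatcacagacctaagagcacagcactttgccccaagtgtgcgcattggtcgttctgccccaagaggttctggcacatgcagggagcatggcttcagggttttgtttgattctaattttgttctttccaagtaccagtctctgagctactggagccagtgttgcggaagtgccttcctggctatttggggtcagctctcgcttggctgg
The motifs searched on both strands were GAAA, any 2 bases and GAAA (the core of the interferon-stimulated response element), TTCNNNGAA (the gamma-activated site bound by STAT proteins), TTGCNNAAT (a C/EBP core) and GGG, any 2 bases and TTTCC (a kappaB site). They occur in 2.98, 7.02, 2.11 and 1.41% of 32851 promoters of the same length. No match says only that these letters are not in this window.

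The 2 chains of the IL-18 receptor are neighbours on chromosome 1, with Il18r1 at 40465552 to 40500854 and Il18rap at 40515362 to 40551705, both on the plus strand and 14507 bases apart. A window of 250 bases is printed for each because both genes were called higher under anti-CD40 in regulatory T cells of both tumours and in CD4 T cells of control tumours. The Il18r1 window lies before the third of its listed starts, with 2 gamma-activated site matches in capitals, at -219 to -211 and -152 to -144 from that start. The windows of its other 2 starts and that of Il18rap had no match, and the matches overlapped no other motif.
Il18r1 (chr1:40465756-40466005): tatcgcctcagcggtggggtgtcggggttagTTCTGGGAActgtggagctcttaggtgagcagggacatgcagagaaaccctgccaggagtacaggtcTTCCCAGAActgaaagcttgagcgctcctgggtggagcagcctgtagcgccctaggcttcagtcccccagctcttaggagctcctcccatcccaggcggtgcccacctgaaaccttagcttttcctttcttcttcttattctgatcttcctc
Il18rap (chr1:40515112-40515361): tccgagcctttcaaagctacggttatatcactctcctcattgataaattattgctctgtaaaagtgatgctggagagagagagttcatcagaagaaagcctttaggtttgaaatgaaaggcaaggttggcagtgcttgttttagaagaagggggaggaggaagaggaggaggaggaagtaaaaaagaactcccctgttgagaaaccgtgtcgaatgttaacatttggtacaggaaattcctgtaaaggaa
Of the 10 members, 9 had a promoter entry, with 13 windows in all. The other matches were 1 gamma-activated site in Il12rb2 and 1 interferon-stimulated response element core in a Stat4 window. A match is a description of letters, not a bound site.

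Il18r1, the ligand-binding chain, rose under anti-CD40 in T cell classes and was not called in NK cells, a difference between classes that was not tested. In CD8 T cells it was 133, 135, 115, 178 and 116 CPM in control isotype mice and 258 and 250 CPM in control anti-CD40 mice. It was 115, 88.6 and 102 CPM in the 3 B2m-null isotype mice with enough cells and 178, 235, 156 and 128 CPM in B2m-null anti-CD40 mice. In both tumours every anti-CD40 mouse lay above every isotype mouse. In control tumours the log2 fold change was 0.94 ± 0.17 (adjusted p = 0.00036), called under all 21 alternatives, none without the 1 anti-CD40 pool. In B2m-null tumours it was 1.01 ± 0.21 (adjusted p = 0.0072). The latter ended without B2m-null isotype replicate 2 (0.88, adjusted p = 0.33, from 1.4e-05 over the alternatives), which left 1 isotype mouse, and with the lane as unit (1.10) or the stricter cell filter (0.92).

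The CD8 T class was held by different clusters in the groups. Cluster 9, led by Gzmf and Rgs16, made up 76.2% of control isotype and 60.9% of B2m-null isotype CD8 T cells, against 15.9 and 28.2% under anti-CD40. Cluster 4, led by Ccl5 and Bcl11b, held 55.8% of control anti-CD40 cells, and cluster 7, led by Ccl5 and Gzmk, held 44.4% of B2m-null anti-CD40 cells. Within each of these 3 clusters the Il18r1 level was higher under anti-CD40 than under isotype in both tumours. Cluster 9 had 135 and 222 CPM in control tumours and 84.2 and 154 CPM in B2m-null tumours, and cluster 4 had 226 and 263 CPM and 192 and 242 CPM.

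In CD4 T cells Il18r1 was 238, 257, 291 and 302 CPM in 4 control isotype mice and 555 and 450 CPM in control anti-CD40 mice. It was 218 and 277 CPM in 2 B2m-null isotype mice and 284, 394, 360 and 332 CPM in B2m-null anti-CD40 mice. No group overlapped its control. The log2 fold change was 0.86 ± 0.20 in control tumours (adjusted p = 0.0099), a call that ended without control isotype replicate 1 (0.77) or control anti-CD40 mouse 1 (0.71) and with the lane as unit (0.90) and was 1.86 with marker gates, with adjusted p from 0.00073 to 0.28. In B2m-null tumours it was 0.63 ± 0.23 and missed the threshold (adjusted p = 0.081). The gene was also higher in regulatory T cells, by 0.74 ± 0.25 (adjusted p = 0.035) in control and 0.97 ± 0.26 (adjusted p = 0.012) in B2m-null tumours. There the isotype mice had 82.7, 103, 109, 96.7 and 78.0 CPM against 145 and 160 CPM in control tumours, and 198, 62.1 and 75.9 CPM against 146, 169, 168 and 112 CPM in B2m-null tumours.

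The B2m-null regulatory T groups overlapped, since B2m-null isotype mouse 1 was the highest of all. Without B2m-null isotype replicate 2 the Il18r1 value in these cells turned to -0.18 and without B2m-null anti-CD40 replicate 2 it was 1.03, and neither was called, nor were the lane as unit (0.92) and DESeq2 (0.85), while the stricter cell filter gave 1.71 and thinned cells 1.76 (adjusted p from 0.00082 to 0.89 over the alternatives). The control call ended without any 1 of the 4 control lanes or 2 control anti-CD40 mice (0.64 to 0.90) and with the lane as unit (0.80) or DESeq2 (0.74), with adjusted p from 0.0099 to 0.43. In NK cells Il18r1 was at 184 to 253 CPM in control isotype, 225 and 214 CPM in control anti-CD40, 209 to 282 CPM in B2m-null isotype and 134 to 189 CPM in B2m-null anti-CD40 mice. Every B2m-null anti-CD40 mouse lay below every B2m-null isotype mouse, and the control groups overlapped. The log2 fold changes there were 0.22 ± 0.17 (adjusted p = 0.5) and -0.35 ± 0.18 (adjusted p = 0.25).

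Il18rap, the signalling partner chain, rose in regulatory T cells, the Foxp3+ suppressive T cells. It was 25.2, 41.2, 14.6, 40.02 and 17.0 CPM in control isotype mice and 164 and 93.0 CPM in control anti-CD40 mice. It was 42.4, 28.9 and 71.4 CPM in B2m-null isotype and 126, 97.9, 101 and 74.4 CPM in B2m-null anti-CD40 mice. No isotype mouse reached the lowest anti-CD40 mouse of its tumour. In control tumours the log2 fold change was 2.10 ± 0.34 (adjusted p = 3e-05). It was called under the 19 alternatives that gave a value (1.77 to 2.58, with none from marker gates or thinned cells). Each of those kept the 1 control anti-CD40 pool. In B2m-null tumours the log2 fold change was 1.28 ± 0.34 (adjusted p = 0.0088). The latter ended without B2m-null isotype replicate 2 (1.4) or B2m-null anti-CD40 replicate 2 (1.45), and with DESeq2 (1.21) or the stricter cell filter (1.16), with adjusted p from 0.0055 to 0.36.

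In CD4 T cells Il18rap was 159, 71.5, 190.4 and 89.5 CPM in control isotype mice and 289 and 320.2 CPM in control anti-CD40 mice, and 114 and 101 CPM against 208, 332, 254 and 265 CPM in B2m-null tumours. The groups did not overlap in either tumour. It rose by 1.24 ± 0.26 log2 units (adjusted p = 0.0066) in control and 1.30 ± 0.31 (adjusted p = 0.01) in B2m-null tumours, where the 17 alternatives that gave a value kept the call. Both of these B2m-null isotype mice were in replicate 2, so the arm is 1 pool, and no value came from leaving it out, nor from 50 cells per mouse, the stricter cell filter, marker gates or thinned cells. Significance in control tumours ended without control isotype replicate 1 (1.14) or control anti-CD40 mouse 2 (1.16) and with the lane as unit (1.32), with adjusted p from 4.4e-05 to 0.1. CD8 T cells had 136, 109, 130.1, 237 and 125 CPM against 185 and 155 CPM in control tumours and overlapped (0.23 ± 0.22, adjusted p = 0.44). In B2m-null CD8 T cells the change was 0.71 ± 0.27 (adjusted p = 0.097), and in NK cells it was 0.12 ± 0.18 and 0.05 ± 0.18.

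**Figure D5:**
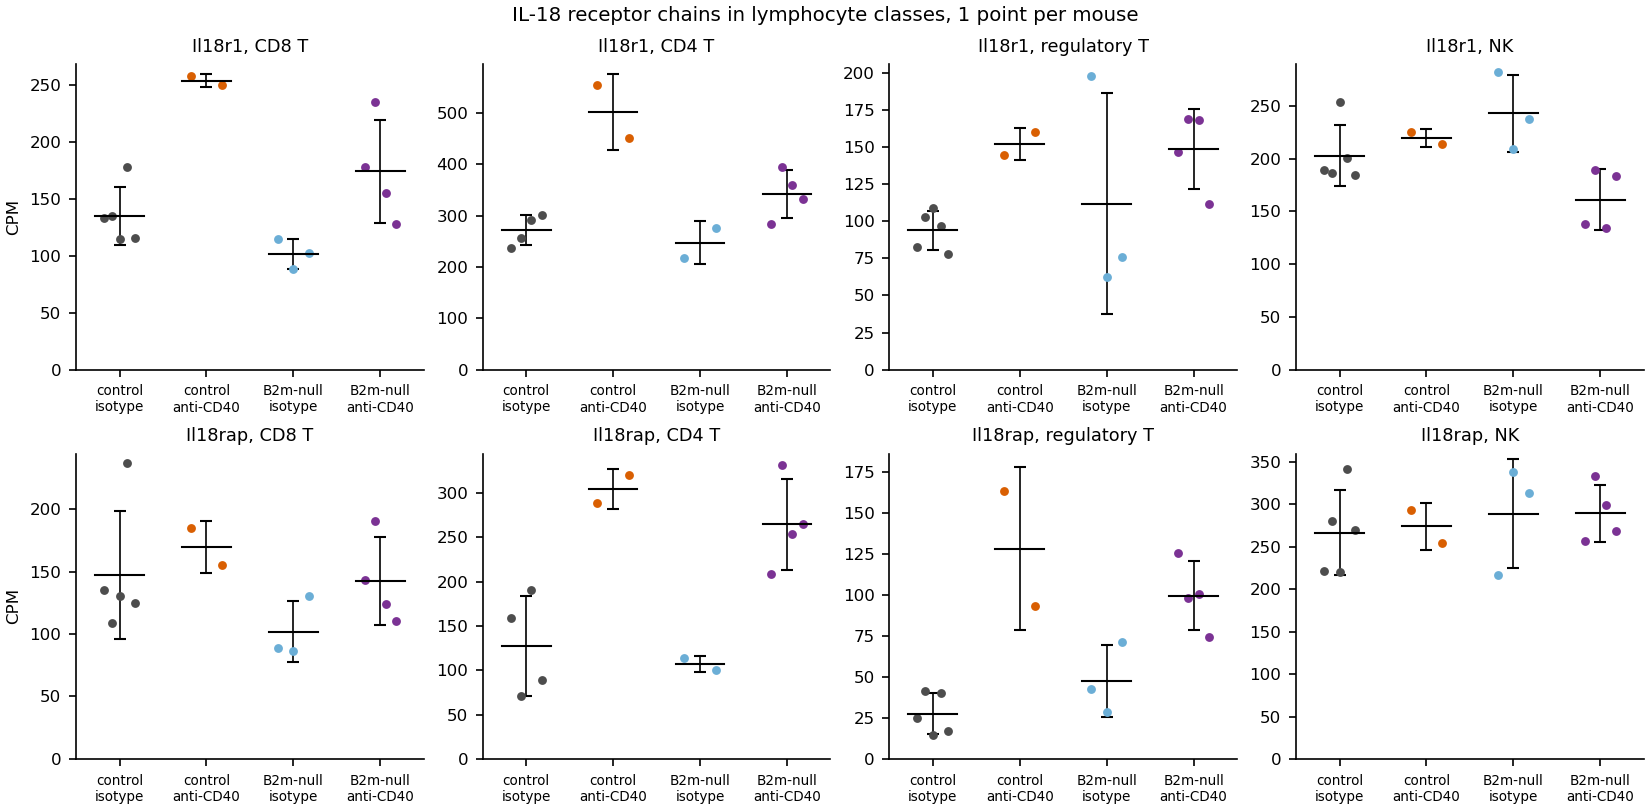
Points are single mice, by group, with lines at the mean and whiskers of 1 SD whose lower end stops at 0, for the CPM of Il18r1 and Il18rap in CD8 T, CD4 T, regulatory T and NK cells. Il18r1 is higher under anti-CD40 in CD8 T and CD4 T cells and Il18rap in CD4 T and regulatory T cells, while in NK cells Il18r1 is 134 to 189 CPM in the B2m-null anti-CD40 mice and 209 to 282 CPM in the B2m-null isotype mice.

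By cells thinned to 1000 UMIs, the share of CD4 T cells with an Il18r1 UMI was 20.7% (14.3 to 28.4%) in control isotype, 38.2% (33.9 to 42.6%) in control anti-CD40, 18.2% (12.4 to 25.2%) in B2m-null isotype and 29.4% (26.7 to 32.3%) in B2m-null anti-CD40 tumours. The unthinned shares were 24.7, 51.5, 25.3 and 55.6% at median depths of 990, 1442, 1299 and 2286 UMIs, and thinning left out 152, 182, 71 and 39 shallower cells. For Il18rap in regulatory T cells the thinned shares were 2.01, 9.27, 5.02 and 7.97% and the unthinned shares 7.18, 20.7, 13.6 and 19.3%, with 98, 46, 53 and 34 cells left out. Monocytes and macrophages gave 0.107 to 0.445% for Il18r1 and 0.379 to 0.721% for Il18rap. Cells with both chains were 5.14% of control isotype and 21.6% of control anti-CD40 CD4 T cells, and 7.56 and 29.2% in B2m-null tumours, unthinned. In CD8 T cells, whose control anti-CD40 cells were shallow (median 1184 against 3365 UMIs), these shares were 20.4 and 10.5% in control and 10.7 and 14.3% in B2m-null tumours.

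Il12rb1, the receptor chain shared by IL-12 and IL-23 (chromosome 8, 70808449 to 70821424, plus strand), rose in NK cells in both tumours. Its NK level was 25.9, 28.9, 55.0, 23.6 and 20.9 CPM in control isotype mice and 60.9 and 49.0 CPM in control anti-CD40 mice. It was 21.7, 22.0 and 14.4 CPM in B2m-null isotype and 61.0, 56.8, 34.6 and 48.9 CPM in B2m-null anti-CD40 mice. Control isotype mouse 3 lay between the control anti-CD40 mice, and the B2m-null groups did not overlap. The log2 fold changes were 1.05 ± 0.28 (adjusted p = 0.021) and 1.41 ± 0.33 (adjusted p = 0.0075). In control tumours the call ended without control isotype replicate 1 (1.34), control isotype replicate 2 (0.83), control anti-CD40 replicate 2 (0.96) or either control anti-CD40 mouse (0.86 and 1.23), and the B2m-null call without B2m-null isotype replicate 2 (1.5), with adjusted p from 0.0051 to 0.29 and from 0.0057 to 0.59. Both ended with the lane as unit (1.14 and 1.25) and the stricter cell filter (0.90 and 1.26), and the first with DESeq2 (1.02).

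T cell markers moved with the NK class. Cd3e, Cd3d, Trac, Cd8a and Cd8b1 were all 5 called higher under anti-CD40 in both tumours, and their sum in NK cells was 183 to 291 CPM in control isotype, 666 to 1071 in control anti-CD40, 90.0 to 181 in B2m-null isotype and 539 to 1209 in B2m-null anti-CD40 mice. In CD8 T cells the same sum was 2337 to 4587 CPM. The part of T cell RNA in the NK results was not tested.

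In CD8 T cells Il12rb1 was 23.5, 18.9, 22.4, 29.7 and 28.9 CPM under isotype and 38.5 and 35.9 CPM under anti-CD40 in control tumours, without overlap (0.61 ± 0.20, adjusted p = 0.018). That call ended without control isotype replicate 1 (0.40), control anti-CD40 replicate 1 (0.50) or either control anti-CD40 mouse (0.57 and 0.65), and with the lane as unit (0.60), DESeq2 (0.59) or thinned cells (0.45), with adjusted p from 0.002 to 0.28. In B2m-null CD8 T cells it was 0.68 ± 0.25 (adjusted p = 0.09). By cluster Il12rb1 was higher under anti-CD40 in clusters 9, 4 and 7 of control tumours (24.3 and 41.2, 29.6 and 37.8, 28 and 32.4 CPM), and in B2m-null tumours in clusters 9 and 4 (27.2 and 37.7, 20.7 and 38.3 CPM) but not in cluster 7 (34.0 and 30.03 CPM), where the isotype levels of clusters 4 and 7 rest on 4 to 8 UMIs. In regulatory T cells it rose in B2m-null tumours from 42.4, 30.3 and 58.0 CPM to 115, 80.1, 60.1 and 79.1 CPM (1.03 ± 0.32, adjusted p = 0.028) and was at 50.3 and 64.4 CPM in control anti-CD40 mice against 50.4 to 76.7 CPM under isotype (-0.06 ± 0.31, adjusted p = 0.94). The B2m-null regulatory T call ended without B2m-null isotype replicate 2 (1.05), B2m-null anti-CD40 replicate 1 (0.88) or B2m-null anti-CD40 replicate 2 (1.34). It also ended with the lane as unit (0.88), no filter on low counts (1.0), DESeq2 (1.03), the stricter cell filter (0.73) and cells thinned to 2000 UMIs, where the value was 0.23, with adjusted p from 0.022 to 0.9.

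In monocytes and macrophages Il12rb1 was 15.1, 10.4, 11.4, 12.3 and 7.13 CPM in control isotype mice and 12.4 and 22.6 CPM in control anti-CD40 mice. It was 4.59, 0, 1.74, 6.08 and 1.17 CPM in B2m-null isotype mice and 8.37, 12.0, 8.72 and 9.49 CPM in B2m-null anti-CD40 mice. B2m-null isotype mice were the lowest of all groups, with no overlap with the control isotype or the B2m-null anti-CD40 mice. The rise under anti-CD40 in B2m-null tumours was 1.69 ± 0.41 (adjusted p = 0.0047), kept under all 22 alternatives.

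Il12rb2, the chain particular to the IL-12 receptor (chromosome 6, 67291318 to 67376188, minus strand), did not follow Il12rb1 in NK cells. Its NK level was 77.7, 57.7, 60.6, 88.4 and 48.1 CPM in control isotype and 28.9 and 35.4 CPM in control anti-CD40 mice, without overlap, but the log2 fold change of -0.95 ± 0.31 missed the threshold (adjusted p = 0.057). In B2m-null NK cells it was 86.7, 51.0 and 46.8 CPM against 22.5, 30.3, 67.1 and 63.6 CPM (0.09 ± 0.31, adjusted p = 0.93). CD4 T cells had 15.9, 14.3, 56.0 and 22.4 CPM in control isotype mice against 65.5 and 66.4 CPM, and 4.94 and 0 CPM in B2m-null isotype mice against 37.9, 138, 57.2 and 69.0 CPM under anti-CD40. Those groups did not overlap, but the counts were too low for a test in CD4 T cells. Of thinned CD4 T cells, 1.43% (0.173 to 5.07%) and 5.62% (3.77 to 8.02%) had an Il12rb2 UMI in control tumours, and 0 of 154, which allows up to 1.95%, and 5.62% (4.32 to 7.18%) in B2m-null tumours.

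In B2m-null monocytes and macrophages Il12rb2 was called higher under anti-CD40 (1.07 ± 0.38, adjusted p = 0.037), at levels of 0 to 1.75 CPM against 1.4 to 2.79 CPM. Il18r1 was called there in both tumours, by 1.52 ± 0.38 (adjusted p = 0.011) in control and 1.29 ± 0.40 (adjusted p = 0.019) in B2m-null tumours, at levels of 0 to 4.31 CPM. The 5 T cell markers were called higher in the same cells in both tumours. Their sum was 8.24 to 21.4 CPM in control isotype, 32.7 to 50.9 in control anti-CD40, 7.30 to 22.7 in B2m-null isotype and 22.7 to 31.9 in B2m-null anti-CD40 mice, and the part of T cell RNA in these receptor results was not tested. The Il12rb2 call ended without any 1 of the control isotype and B2m-null lanes except B2m-null isotype replicate 2, where it was 1.88 (0.84 to 1.30 for the others), and with the stricter cell filter (0.77), thinned cells (1.11) or marker gates (1.06), with adjusted p from 0.023 to 0.17. The Il18r1 calls ended without control anti-CD40 replicate 2 (1.2) or control anti-CD40 mouse 2 (1.13), and without any 1 of the 4 B2m-null lanes (1.14 to 1.55), and the control value was 2.49 without control isotype replicate 1, with adjusted p from 0.0024 to 0.24 and from 0.0027 to 0.092. Both ended with marker gates (1.6 and 1.56), the first with thinned cells (1.28) and the second with the lane as unit (1.08) or the stricter cell filter (1.15).

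Over all haematopoietic cells most receptor genes rose under anti-CD40, and CD8 T cells were a larger share of those cells. Il18r1 rose by 1.81 ± 0.39 (adjusted p = 0.0038) in control and 1.89 ± 0.36 (adjusted p = 0.0013) in B2m-null tumours, Il18rap by 1.12 ± 0.35 (adjusted p = 0.029) and 1.51 ± 0.32 (adjusted p = 0.0023), and Il12rb1 by 0.97 ± 0.31 (adjusted p = 0.032) and 1.70 ± 0.30 (adjusted p = 0.00069). Il12rb2 rose by 1.23 ± 0.31 (adjusted p = 0.0062) and Tbx21 by 1.47 ± 0.45 (adjusted p = 0.02) in B2m-null tumours, and in control tumours they stood at 0.15 ± 0.34 and 1.2 ± 0.48 and were not called. The CD8 T share was 7.08 ± 3.71% (SD, n = 5) in control isotype, 34.0 ± 4.42% (n = 2) in control anti-CD40, 2.24 ± 2.2% (n = 5) in B2m-null isotype and 21 ± 11% (n = 4) in B2m-null anti-CD40 mice. Il18bp rose as well, by 0.98 ± 0.18 (adjusted p = 0.0017) and 1.45 ± 0.16 (adjusted p = 4.1e-05). Of the B2m-null calls, those of Il18r1, Il12rb1 and Il18bp were kept under all 22 alternatives, and those of Il18rap (1.17), Il12rb2 (0.97) and Tbx21 (1.12) ended without B2m-null isotype replicate 1, the last also without B2m-null anti-CD40 replicate 2 (1.24), with adjusted p up to 0.05, 0.076 and 0.17. Without B2m-null isotype replicate 2 these 3 were 2.12, 1.83 and 2.38. In control tumours the call of Il18r1 ended without control anti-CD40 mouse 1 (1.63) and that of Il18bp without mouse 2 (0.62), with adjusted p up to 0.053 and 0.095. That of Il18rap ended without control isotype replicate 1 (1.22) or 2 (1.04), control anti-CD40 replicate 1 (1.01) or either control anti-CD40 mouse (0.88 and 1.33), with adjusted p from 0.0042 to 0.24. That of Il12rb1 ended without control isotype replicate 1 (1.10) or 2 (0.87), B2m-null isotype replicate 1 (0.97), B2m-null anti-CD40 replicate 2 (0.95) or either control anti-CD40 mouse (1.13 and 0.77), with adjusted p from 0.00083 to 0.26.

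Stat4, which carries the signal of the IL-12 receptor (chromosome 1, 51987148 to 52107189, plus strand), fell in NK cells under anti-CD40. Its NK level was 126, 173, 154, 144 and 128 CPM in control isotype and 77.7 and 80.3 CPM in control anti-CD40 mice, and 173, 144 and 187 CPM in B2m-null isotype against 61.0, 102, 104 and 83.2 CPM in B2m-null anti-CD40 mice. The groups did not overlap in either tumour. Stat4 fell by 0.77 ± 0.20 (adjusted p = 0.016) and by 0.71 ± 0.20 (adjusted p = 0.022) on the log2 scale. NK markers moved with it: their sum in NK cells was 2465 to 2778 CPM in control isotype, 1927 to 2345 in control anti-CD40, 2443 to 2829 in B2m-null isotype and 1894 to 2217 in B2m-null anti-CD40 mice. Ncr1, an activating receptor gene of NK cells, fell by 0.76 ± 0.18 in control tumours (adjusted p = 0.01) and was not called in B2m-null tumours (adjusted p = 1.0). The part of these markers, and of the T cell markers given above, in the fall of Stat4 was not tested. The control call ended without control isotype replicate 1 (-0.74), control anti-CD40 replicate 1 (-0.67) or either control anti-CD40 mouse (-0.77 and -0.76), and the B2m-null call without B2m-null isotype replicate 2 (-0.62) or B2m-null anti-CD40 replicate 1 (-0.59), with adjusted p from 0.0058 to 0.74 and from 0.018 to 0.64. In control NK cells, thinning to 2000 UMIs (-0.29) and clustering at resolution 2 (-0.44) ended the call at a much smaller fold, and the lane as unit (-0.75), DESeq2 (-0.78), the stricter cell filter (-0.66) and marker gates (-0.79) ended it at a similar one. In B2m-null NK cells it ended with the lane as unit (-0.61), DESeq2 (-0.73), the stricter cell filter (-0.67), thinned cells (-0.65) and resolution 2 (-0.57). Thinned to 1000 UMIs, 11.4, 7.31, 16.9 and 7.32% of control isotype, control anti-CD40, B2m-null isotype and B2m-null anti-CD40 NK cells had a Stat4 UMI, among 712, 520, 552 and 601 cells deep enough to thin.

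In regulatory T cells Stat4 was 32.4, 41.2, 10.9, 46.7 and 17.0 CPM under isotype and 81.7 and 64.4 CPM under anti-CD40 in control tumours, without overlap (1.25 ± 0.38, adjusted p = 0.02). That call ended without control isotype replicate 1 (1.15), control anti-CD40 replicate 1 (0.92) or either control anti-CD40 mouse (1.13 and 1.5), with the lane as unit (1.21), DESeq2 (1.31) or the stricter cell filter (1.05), and with cells thinned to 2000 UMIs, where the value was 0.72, with adjusted p from 0.0083 to 0.45. In B2m-null tumours it was 84.7, 40.5 and 40.2 CPM against 52.3, 35.6, 98.5 and 97.7 CPM, which overlapped (0.95 ± 0.34, adjusted p = 0.064). In CD8 T cells Stat4 was not called, at 0.21 ± 0.17 (adjusted p = 0.34) and 0.02 ± 0.20 (adjusted p = 0.98).

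Stat4 was also measured in dendritic cells, mainly the mature ones, at 134 to 222 CPM in control isotype, 148, 305, 271 and 258 CPM in B2m-null isotype and 103 and 65.7 CPM in 2 B2m-null anti-CD40 mice, both of replicate 1. The 1 control anti-CD40 mouse with enough of them had 167 CPM, inside the control isotype range. Over conventional dendritic cells it fell by 1.52 ± 0.32 on the log2 scale in B2m-null tumours (adjusted p = 0.0076), and within mature dendritic cells the log2 fold change of -1.56 ± 0.40 missed the threshold (adjusted p = 0.065). The first call ended without B2m-null anti-CD40 replicate 2 (-1.09, adjusted p = 0.27, from 7.2e-07 over the alternatives), and marker gates gave -2.51. In control tumours the conventional dendritic cell levels were 69.0 to 115 CPM under isotype and 37.5 and 65.9 CPM under anti-CD40, without overlap, and the change was not called (-0.54 ± 0.35, adjusted p = 0.58). Of thinned mature dendritic cells, 17.0% (14.6 to 19.6%) in control isotype, 12.5% (4.73 to 25.2%) in control anti-CD40, 22.3% (19.7 to 25.1%) in B2m-null isotype and 7.69% (3.58 to 14.1%) in B2m-null anti-CD40 tumours had a Stat4 UMI. T cell markers in conventional dendritic cells summed to 103 to 240 CPM in B2m-null isotype and 126 to 507 CPM in B2m-null anti-CD40 mice. In the mature dendritic cell cluster, 18.9% of barcodes carried T cell and myeloid genes together. The part of T cell RNA in the Stat4 results was not tested.

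Tbx21, which encodes T-bet (chromosome 11, 97098071 to 97115331, minus strand), was 48.4, 33.5, 52.9, 32.4 and 40.04 CPM in CD8 T cells of control isotype mice and 64.0 and 57.2 CPM under anti-CD40, without overlap (0.56 ± 0.18, adjusted p = 0.017). The call ended without control isotype replicate 2 (0.41), control anti-CD40 replicate 1 (0.43) or either control anti-CD40 mouse (0.49 and 0.64), and with the lane as unit (0.56), with adjusted p from 0.0075 to 0.17. By cluster, Tbx21 was 42.7 CPM under isotype and 65.5 CPM under anti-CD40 in cluster 9 of control tumours, 44.4 and 50.7 CPM in cluster 4 and 63.0 and 60.3 CPM in cluster 7. In B2m-null tumours it was 37.3 and 50.6 CPM in cluster 9, 67.4 and 50.5 CPM in cluster 4 and 28.3 and 45.6 CPM in cluster 7, so 1 cluster in each tumour was not higher under anti-CD40. The isotype levels of clusters 4 and 7 rest on 5 to 13 UMIs. In B2m-null CD8 T cells it was 19.1, 39.7 and 32.5 CPM against 52.1, 58.3, 45.5 and 46.4 CPM, again without overlap but short of the threshold (0.64 ± 0.23, adjusted p = 0.083). Without B2m-null isotype replicate 2, which left 1 isotype mouse, the value was 1.68 (adjusted p = 0.19). In NK cells the levels were 66.1 to 73.7 CPM in control isotype, 79.2 and 88.5 CPM in control anti-CD40, 79.2 to 86.7 CPM in B2m-null isotype and 41.7 to 83.2 CPM in B2m-null anti-CD40 mice, with no call (0.32 ± 0.20 and -0.07 ± 0.21).

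Under isotype, Il18bp and Il12rb1 were lower in B2m-null than in control tumours, and none of the other 8 genes was called. Of 58 tests 4 were called, all lower, and 17 had an unadjusted p under 0.05. They were Il18bp and Il12rb1, each in all haematopoietic cells (2 of 10 members, 5.16% of all genes) and in monocytes and macrophages (2 of 10, 6.51%). No member was called in conventional dendritic cells (0 of 8, 1.14%), mature dendritic cells (0 of 9, 0.501%), CD8 T cells (0 of 7, 0.225%), CD4 T cells (0 of 3, 0.0649%), regulatory T cells (0 of 5, 0.089%) or NK cells (0 of 6, 0.12%).

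Il18bp in B2m-null against control tumours had a log2 fold change of -1.26 ± 0.22 (adjusted p = 0.006) in monocytes and macrophages and -1.05 ± 0.16 (adjusted p = 0.0039) in all haematopoietic cells. For Il12rb1 the values were -1.74 ± 0.40 (adjusted p = 0.018) and -1.26 ± 0.29 (adjusted p = 0.023). Each of the 4 ended without control isotype replicate 1 (-1.05, -1.0, -1.54 and -1.13 in the order given) and without B2m-null isotype replicate 1 (-1.32, -1.16, -1.76 and -1.18), and adjusted p over the alternatives of all 4 ran from 3e-07 to 0.46. DESeq2 on the same sums called 7 of the tests.

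Under anti-CD40, 2 of 49 tests were called between the tumours, both of Il12a and both higher in B2m-null tumours, and 14 had an unadjusted p under 0.05. The counts were 1 of 10 in all haematopoietic cells (12.2% of all genes) and 1 of 10 in monocytes and macrophages (10.1%). They were 0 of 8 in conventional dendritic cells (0.441%), 0 of 7 in CD8 T cells (13.5%), 0 of 3 in CD4 T cells (9.41%), 0 of 5 in regulatory T cells (2.76%) and 0 of 6 in NK cells (4.14%). Il18bp in macrophages was at -0.83 ± 0.26 and missed the threshold (adjusted p = 0.056).

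The difference of the anti-CD40 effects between the tumours was called for 0 of 49 tests by edgeR, with 9 at an unadjusted p under 0.05, and for 1 by DESeq2. The background was 16.7% of all genes in all haematopoietic cells, 16.2% in monocytes and macrophages, 2.1% in conventional dendritic cells, 8.86% in CD8 T cells, 0.454% in CD4 T cells, 2.26% in regulatory T cells and 1.97% in NK cells. A member called in one tumour and not in the other is therefore not shown to differ between them.

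Other genes of the pathway were counted from lists. The lists were chosen with earlier results of these data known. Their counts and medians, here and in the next 2 paragraphs, therefore describe the lists and are no test against all genes. The 14 lymphocyte targets were genes of cytokines, chemokines, cytotoxic granules and transcription factors, among them Ifng, Eomes, Runx3 and Cxcr3. Under anti-CD40 in B2m-null tumours, 8 of the 13 tested in NK cells were called higher and 1 lower, where 8.49% of all genes were called, and 8 of 11 were higher and 1 lower in regulatory T cells (11.2% of all genes). In control tumours 5 of 11 were higher and 1 lower in regulatory T cells (17.4%), and 5 of 10 were higher in CD4 T cells (6.65%). The median log2 fold changes of these 4 were 1.31, 1.33, 0.88 and 1.0, against 0, -0.01, -0.01 and -0.04 over all genes tested. In B2m-null CD4 T cells 5 of 10 were higher (12.1%), and in control NK cells 0 of 13 were called (6.63%). In CD8 T cells of control tumours 4 of 13 were called higher and 2 lower (42.5%), and of B2m-null tumours 2 higher and 3 lower (8.8%). Ifng, the interferon gamma gene, rose by 4.02 ± 0.85 (adjusted p = 0.005) in CD4 T and 1.64 ± 0.28 (adjusted p = 0.00035) in NK cells of B2m-null tumours and by 3.00 ± 0.63 (adjusted p = 0.0054) in CD4 T cells of control tumours. The B2m-null CD4 T values rest on 2 isotype mice of 1 pool, replicate 2, and were not tested without it. Cxcr3, a receptor for interferon-induced chemokines, rose in 5 cell sets in B2m-null and in 3 in control tumours. Eomes, a T-box factor related to T-bet, fell in B2m-null NK cells by 1.0 ± 0.18 (adjusted p = 0.00072). The T cell markers given above were called higher in these NK cells, and their part in the NK counts and in Ifng was not tested.

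Of 11 genes for IL-18 maturation and signalling, 3 were higher and 1 lower in B2m-null macrophages under anti-CD40, and 0 higher and 1 lower in control macrophages, where 34.4% and 20.6% of all genes were called, so the share was near the background in the first and under it in the second (median 0.19 and -0.06, against -0.01 and 0 over all genes). Casp1, which encodes the enzyme that cleaves IL-18, rose in B2m-null macrophages by 0.99 ± 0.12 (adjusted p = 3.2e-05), Pycard, its inflammasome adaptor, by 0.69 ± 0.12 (adjusted p = 0.00041), and Gsdmd, the pore through which cleaved cytokines leave, by 1.11 ± 0.15 (adjusted p = 8.7e-05). For these 3 genes the difference of the effects between the tumours was itself called, at 0.81 ± 0.19 (adjusted p = 0.01), 0.90 ± 0.19 (adjusted p = 0.0062) and 1.17 ± 0.24 (adjusted p = 0.0056). Under isotype Casp1 was at -0.79 ± 0.12 (adjusted p = 0.0031) and Pycard at -0.82 ± 0.11 (adjusted p = 0.0031) in B2m-null against control macrophages. Myd88, the adaptor below the IL-18 receptor, fell in control macrophages by 0.63 ± 0.14 (adjusted p = 0.006).

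Of 12 inducers of the cytokines, 7 were higher and 1 lower in B2m-null macrophages under anti-CD40, and 0 higher and 2 lower in control macrophages, where 34.4% and 20.6% of all genes were called (median 0.49 and -0.11, against -0.01 and 0 over all genes). In B2m-null mature dendritic cells 3 were higher and 2 lower (1.09% of all genes), and in conventional dendritic cells 3 and 1 (8.36%). The mature dendritic cell values rest on 2 anti-CD40 mice of 1 pool, replicate 1, and were not tested without it. Cd40 itself rose in B2m-null macrophages by 1.32 ± 0.22 (adjusted p = 0.00033) and in mature dendritic cells by 1.36 ± 0.23 (adjusted p = 0.0032). Irf8, which drives Il12b in dendritic cells, rose there by 1.02 ± 0.20 (adjusted p = 0.011), while Rel, an NF-kB subunit, fell by 1.12 ± 0.22 (adjusted p = 0.011). Il27, a chain of the related cytokine IL-27, rose in B2m-null mature dendritic cells by 3.22 ± 0.68 (adjusted p = 0.019) and in macrophages by 1.71 ± 0.28 (adjusted p = 0.00031). Over conventional dendritic cells, with 4 anti-CD40 mice of both pools, Cd40 was at 1.21, Irf8 at 0.49, Rel at -0.77 and Il27 at 2.51, all called (adjusted p = 0.0046, 0.015, 0.0076 and 0.015), and in control tumours none of these 4 was called. Socs1 and Socs3, which encode feedback inhibitors of cytokine receptor signalling, rose in B2m-null macrophages by 1.66 ± 0.39 (adjusted p = 0.0038) and 1.01 ± 0.16 (adjusted p = 0.00022).

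Genes with the most similar pattern were listed for 6 of the members, by Pearson's r of log2(CPM + 1) over 37 means of a class in a group, among 11443 genes. The points share libraries and depth, so r is given as a description. For Il12b these were Plppr4 (r = 0.943), Mab21l3, Slco5a1, Slc22a23 and Col27a1. For Il18 they were Fcgr2b (0.897), Sh3pxd2b, Rtn4, Dab2 and Btk, and for Il18bp Cfb (0.898), Nat9, C3, Atp6v0b and Fcgr4. Il18r1 was most like Ccdc88c (0.964), Gimap3, Spn, Cep97 and Trbc1, Il12rb2 most like Zfp868 (0.861), Lrrc8c, B4galnt1, Runx3 and Abhd2, and Tbx21 most like Fam189b (0.908), Nkg7, Gimap5, Ctsw and Ms4a4b.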

How the data were processed

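Single-cell RNA and hashtag UMI counts per barcode were used as the authors deposited them, for 8 lanes of 10x 3' v3 libraries with feature barcoding. Per the submitters' processing notes, bcl2fastq 2.20.0.422 and Cell Ranger 3.0.0 made them on mm10, and the values are whole-number counts. The 10 genes and the lists of other genes were chosen with earlier results of these data known.

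Barcodes with at least 200 genes, at most 10% mitochondrial UMIs and 20 hashtag counts were kept. A barcode with 20 or more hashtag counts was assigned to a mouse at a posterior of 0.9 from those counts. Hashtag doublets, at 2.5 SD above background, were removed (3.19 to 13.26% per lane). Kept barcodes that were not assigned stayed in the clusters. Scrublet marked 0 to 0.036% of cells, which means that its threshold did not work, and doublets within 1 mouse remain. The labels list 3 hashtags per pool, while 6 of the 8 files hold 2. Counts were clustered with scanpy 1.11.5 and leidenalg 0.10.2 (2000 variable genes without the 10 members, 40 components, 20 neighbours, resolution 1). Clusters were named from marker lists, with thresholds set after seeing the data. Cells per mouse and lane depth are given in the opening of the results.

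Counts were summed by mouse and class and tested with edgeR 4.0.16 (TMM, filterByExpr, quasi-likelihood, group means over 4 groups) with Benjamini-Hochberg adjustment over all genes of a class and comparison. A class entered for mice with 20 or more of its cells. The labels do not say that mice were housed or handled separately, so p-values measure the spread between these mice. Comparisons needed 2 mice in each arm, except with the lane as unit or a lane or mouse left out. Alternatives were the lane as unit (the control anti-CD40 lanes, technical replicates, summed to 1), DESeq2 1.42.0, RLE normalization, no filter on low counts, a stricter cell filter (500 genes, 5% mitochondrial UMIs), 10 or 50 cells per mouse, the highest Scrublet scores removed, clustering at resolution 2, marker gates in place of clusters, cells thinned to 2000 UMIs, a replicate block, and each lane or control anti-CD40 mouse left out. Where these leave 1 sample in an arm, it is assumed to vary like the other groups, which give the spread. The test was checked on simulated counts for anti-CD40 in B2m-null tumours. It recovered 82.1% of 2-fold changes in monocytes and macrophages, 43.1% in CD8 T cells and 10.8% in mature dendritic cells. Of 4-fold changes in mature dendritic cells it recovered 45.9%, so a gene not called there can still have changed. Named pathway genes were those called in 2 or more cell sets, and similar genes the top 5 by r. Promoters and gene positions came from RefSeq (GRCm38.p6) and GENCODE vM21, the same build as the counts. One gene of the pathway lists is not reported here.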

Additional observations from a re-analysis of the deposited data

Results flagged for a closer look

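In 5 of 80 groups of 4 or 5 mice tested, 1 mouse stood far from the rest of its group, and chance flags about 1 group in 20. In NK cells, Il12rb1 was 55.0 CPM in control isotype mouse 3, against 20.9 to 28.9 CPM in the other mice. In monocytes and macrophages, Il12rb2 was 2.45 CPM in the same mouse, against 1.5 to 1.77 CPM. In the same class Il18bp was 164 CPM in control isotype mouse 1, against 73.1 to 85.3 CPM. Over all haematopoietic cells, Tbx21 was 17.8 CPM in control isotype mouse 1, against 6.38 to 8.97 CPM. Over all haematopoietic cells, Tbx21 was 10.9 CPM in B2m-null isotype mouse 4, against 1.82 to 4.39 CPM.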

How the results depend on the processing

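Of 48 calls of a member in a class and comparison, 10 were kept under each alternative that gave a value and 47 kept their direction. For 4 of the 10, 2 to 5 alternatives gave none, since the gene fell under the filter or an arm was left with too few mice. None of the alternatives left out the 1 control anti-CD40 pool. Anti-CD40 in control tumours gave 19 calls, against 10 with the lane as unit (1 summed lane in the anti-CD40 arm), 11 with cells thinned to 2000 UMIs, 12 with marker gates and 6 to 21 with a lane or mouse left out (7 without control isotype replicate 1, 6 without either control anti-CD40 mouse). Anti-CD40 in B2m-null tumours gave 23, against 13 with the stricter cell filter, 12 with thinned cells and 13 to 23 with a lane or mouse left out (13 without B2m-null isotype replicate 2). Genotype under isotype gave 4, against 7 with DESeq2 and 0 to 8 with a lane or mouse left out (0 without control isotype replicate 1 or B2m-null isotype replicate 1, 8 without B2m-null isotype replicate 2). Genotype under anti-CD40 gave 2, against 1 with the lane as unit, 4 with no filter on low counts, 0 with thinned cells, 1 with marker gates and 0 to 6 with a lane or mouse left out (6 without B2m-null isotype replicate 2, 0 without control anti-CD40 mouse 1, and 1 without control anti-CD40 mouse 2 or either control anti-CD40 replicate). The difference of the anti-CD40 effects gave 0, against 1 with DESeq2, 2 with the stricter cell filter, 1 with the highest Scrublet scores removed and 0 to 5 with a lane or mouse left out (3 without B2m-null isotype replicate 2, 1 and 5 without B2m-null anti-CD40 replicate 1 and 2, 1 without control anti-CD40 mouse 2). The cause of these shifts was not tested.

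Il18r1 in regulatory T cells of B2m-null tumours turned to -0.18 without B2m-null isotype replicate 2, within a range of -0.18 to 1.23 over the left-out lanes and mice. Il12b in conventional dendritic cells, never called, turned sign in control tumours to 0.04 without control isotype replicate 1, 0.30 without control anti-CD40 replicate 2 and 0.25 without control anti-CD40 mouse 1, within a left-out range of -2.81 to 0.30. In B2m-null tumours it turned to -0.03 with no filter on low counts, -0.18 with 50 cells per mouse, -0.07 with the highest Scrublet scores removed, -0.88 with marker gates, -0.45 without B2m-null isotype replicate 2 and -1.42 without B2m-null anti-CD40 replicate 1, within a left-out range of -1.42 to 0.99. In mature dendritic cells it turned to -0.06 without B2m-null isotype replicate 2, within a left-out range of -0.06 to 0.90. With the replicate block on lanes, anti-CD40 in B2m-null tumours gave 24 calls and genotype under isotype 4, against 23 and 4. The labels give the numbers no shared batch. Over all haematopoietic cells, deviations of same-numbered lanes had correlations of -0.066 (control isotype and B2m-null isotype) and 0.252 (B2m-null isotype and B2m-null anti-CD40). In monocytes and macrophages these were 0.045 and 0.244. Whether such lanes shared a batch cannot be told from 2 lanes per group, and the main tests held no block. Il12a at 302 UMIs in all, and mature dendritic cells under anti-CD40 at 49 and 126 cells, limit what could be seen.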
